A study of Mus musculus with 48 samples.

Results

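Genes of the eosinophil program were followed through the making of red pulp macrophages (RPMs), the iron-recycling macrophages of the spleen. The set held 10 of the 54735 genes counted in each library: *Ccr3*, *Siglecf*, *Il5ra*, *Epx*, *Prg2*, *Prg3*, *Ear1*, *Ear2*, *Ear6*, and *Alox15*. They were chosen as a known eosinophil set after the results of WT monocytes and WT pre-RPMs had been seen, because *Ccr3* had the largest rise between those groups. Values that involve either of these WT groups are therefore given as a description, without a test.

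RNA-seq was measured in 24 libraries from the spleens of male Balb/c mice, 10 weeks old and not treated, with 4 mice per genotype and 1 library per mouse for each of 3 sorted cell types. The genotypes were wild type (WT) and *Il1rl1*-/-, a germline loss of the receptor for IL-33. Monocytes were sorted as Ly6G lo CD11b hi F4/80- cells, pre-RPMs, the stage between monocytes and RPMs, as Ly6G lo CD11b hi F4/80 lo cells, and RPMs as Ly6G lo CD11b lo/- F4/80 hi cells. The sort gates in the labels name no eosinophil stain, and whether eosinophils fell into one of these gates was not tested. The study's flow cytometry counted these populations within cells of low side scatter, a gate that leaves out most granular cells such as eosinophils, and whether the sort used it was not given in the sources used here. The 24 chromatin accessibility samples of the study were not analysed here.

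Eosinophils are granulocytes that depend on IL-5, which signals through the receptor chain encoded by *Il5ra*, and that follow eotaxins through the chemokine receptor CCR3. Their granules store a peroxidase (*Epx*), major basic proteins (*Prg2* and *Prg3*), and ribonucleases of the EAR family (*Ear1*, *Ear2*, and *Ear6*), most of which are made while the cell matures in the bone marrow. Mature eosinophils carry the lectin Siglec-F on their surface, and in mice *Alox15*, a lipoxygenase that adds oxygen to arachidonic acid, is found in eosinophils and in some resident macrophages.

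The name of a pre-RPM eosinophil set holds for some of these genes and not for others. All genes but *Ccr3* and *Ear2* had their highest mean level in pre-RPMs in both genotypes, but *Ear1*, *Epx*, and *Prg3* did so at no more than 9 counts in any library, and for *Prg2* no difference between the cell types was called in *Il1rl1*-/- mice. For *Alox15*, *Siglecf*, *Il5ra*, and *Ear6*, every *Il1rl1*-/- pre-RPM library was above every *Il1rl1*-/- monocyte and RPM library. *Ccr3* was higher in pre-RPMs than in monocytes, but it was higher again in RPMs. *Ear2* was counted in all 24 libraries, without a called change in *Il1rl1*-/- mice. Each gene is therefore described on its own.

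**Figure D1:**
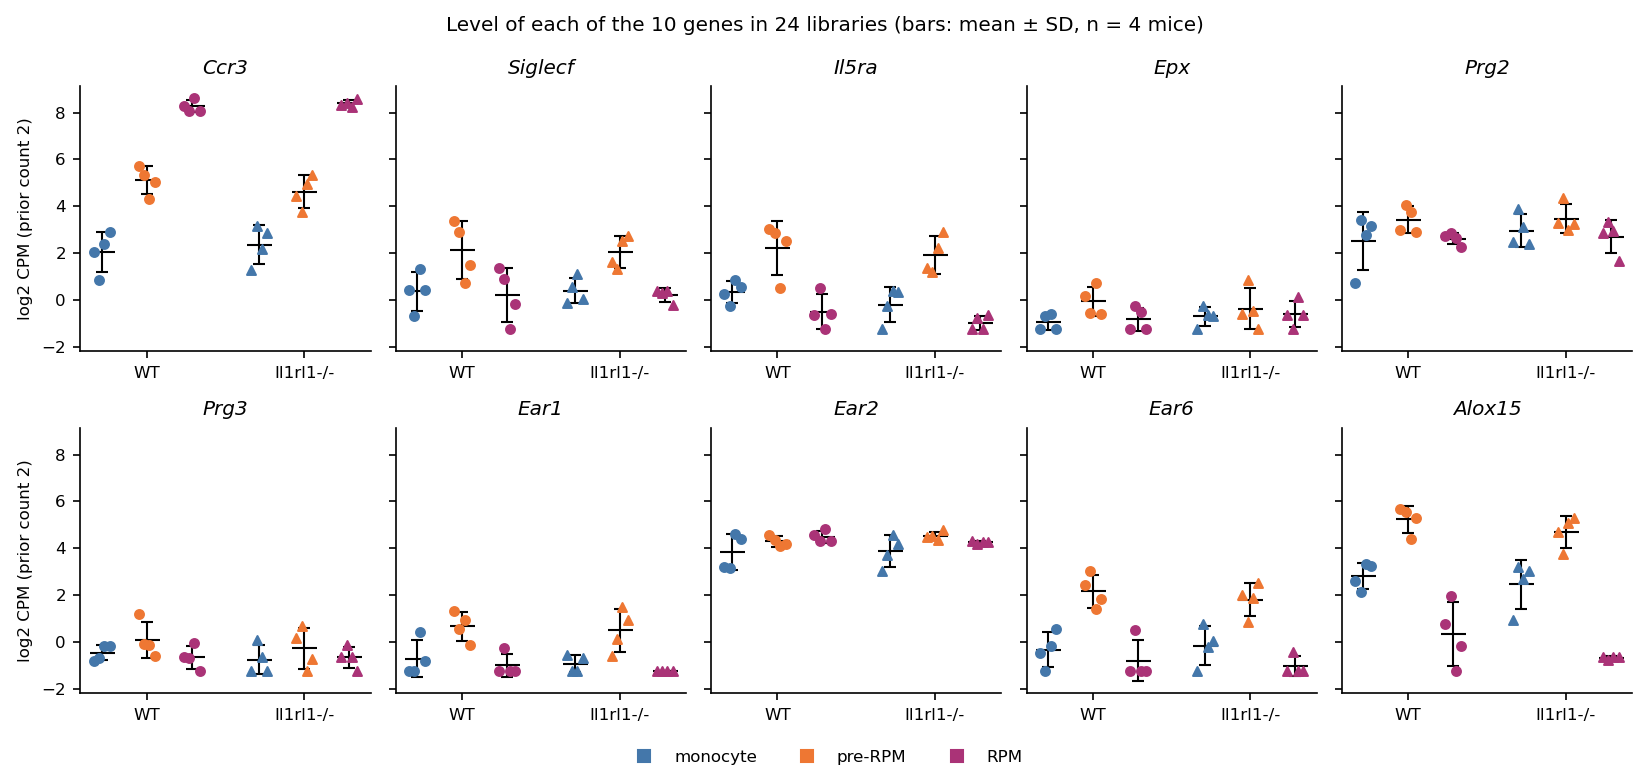
Level of the 10 genes as log2 CPM with a prior count of 2 (vertical axis) in the 24 libraries. Circles are WT and triangles Il1rl1-/- libraries, colours give the cell type, and black bars are the mean ± SD of 4 mice. Ccr3 climbs at each step, Alox15, Siglecf, Il5ra, and Ear6 peak in pre-RPMs, and Epx and Prg3 lie near the lowest values in every group.

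Reads were counted on *Il1rl1* itself in every library, and the counts go against the genotype label in monocytes and pre-RPMs. Its level was 3.19 ± 1.05 counts per 1000000 (CPM) in WT monocytes and 14.1 ± 1.44 CPM in monocytes labelled *Il1rl1*-/-, 4.25 ± 1.06 and 12.3 ± 0.465 CPM in pre-RPMs, and 1.94 ± 0.80 and 0.826 ± 0.482 CPM in RPMs (mean ± SD, n = 4 throughout). Libraries are named by their label below. The total count per library had a median of 4728764 (from 3562367 to 6559454), and *Gm42418* alone took from 24.4% to 38.8% of it. At this depth a count of 3 corresponds to between 0.449 and 0.892 CPM, and counts up to 3 lie near the limit of detection.

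In the *Il1rl1*-/- libraries, whose values the stated rule did not use, *Ccr3* and *Alox15* rose from monocytes to pre-RPMs. The set was chosen with earlier results of all libraries known, so that these tests are not independent evidence of the choice. The counts of *Ccr3* (GRCm38 chromosome 9, from 124021972 to 124031689, plus strand) in *Il1rl1*-/- mice 1 to 4 were 8, 40, 19, and 33 in monocytes and 90, 76, 103, and 217 in pre-RPMs. These correspond to 5.31 ± 2.85 and 26.3 ± 11.9 CPM (mean ± SD, n = 4). Every pre-RPM library was above every monocyte library. The log2 fold change was 2.28 (SE 0.396, adjusted p = 0.00263 by the Benjamini-Hochberg method after the quasi-likelihood test of edgeR), past the threshold used between cell types, an adjusted p under 0.01 with an absolute log2 fold change above 1.

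*Alox15* (chromosome 11, from 70344152 to 70352031, minus strand) had 6, 42, 28, and 37 counts in *Il1rl1*-/- monocytes and 107, 77, 113, and 207 in *Il1rl1*-/- pre-RPMs, or 5.99 ± 3.22 and 27.6 ± 11.2 CPM (mean ± SD, n = 4). The groups did not overlap. The log2 fold change was 2.17 (SE 0.397, adjusted p = 0.00365 by edgeR). Both calls were lost when *Il1rl1*-/- pre-RPM mouse 3 or mouse 4 was left out, with adjusted p = 0.0115 and 0.0109 for *Ccr3* and 0.0155 and 0.0159 for *Alox15* in edgeR's test, while their log2 fold changes stayed between 1.96 and 2.21. Without *Il1rl1*-/- pre-RPM mouse 1, *Alox15* alone lost its call (adjusted p = 0.0118 by edgeR).

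The surface receptors *Siglecf* and *Il5ra* were higher in pre-RPMs as well, without passing the threshold. *Siglecf* (chromosome 7, from 43351341 to 43359531, plus strand), the eosinophil lectin, had 2, 5, 8, and 3 counts in *Il1rl1*-/- monocytes and 11, 12, 18, and 33 in *Il1rl1*-/- pre-RPMs. Its log2 fold change was 2.00 (SE 0.483, adjusted p = 0.0154 by edgeR). *Il5ra* (chromosome 6, from 106710357 to 106749037, minus strand), the chain that binds IL-5, had 0, 2, 4, and 4 counts in *Il1rl1*-/- monocytes and 9, 11, 14, and 38 in *Il1rl1*-/- pre-RPMs, with a log2 fold change of 2.76 (SE 0.626, adjusted p = 0.0114 by edgeR). In neither gene did the groups overlap. Mouse numbers pair the cell types of an animal, and with the mouse as a block both genes passed, with adjusted p = 0.0047 for *Siglecf* and 0.00119 for *Il5ra* in edgeR's test. Both genes reached the level that the low-count filter asks for in the 4 pre-RPM libraries and in 0 of the monocyte libraries, so that they were tested only because they were high in pre-RPMs, and these calls are no support for the rise.

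Among the granule genes, only *Ear6* had groups that did not overlap between *Il1rl1*-/- monocytes and pre-RPMs. *Ear6* (chromosome 14, from 51853699 to 51854643, plus strand), a ribonuclease of the EAR family, had 0, 6, 2, and 3 counts in monocytes and 15, 8, 11, and 28 in pre-RPMs. Too few libraries reached the count that the filter asks for, and it was not tested. *Ear1* (chromosome 14, from 43818765 to 43875517, minus strand) had 1, 0, 0, and 1 counts in monocytes and 1, 4, 8, and 8 in pre-RPMs. The ratio of its summed counts, relative to library size, was 10.2 (95% interval from 2.49 to 89.8, exact binomial, counting error only), and the groups overlapped.

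*Prg2* and *Ear2*, the granule genes with the highest counts, were not called. *Prg2* (chromosome 2, from 84980461 to 84983632, plus strand), which encodes the major basic protein, had 8.09 ± 4.41 CPM in *Il1rl1*-/- monocytes and 11.5 ± 5.85 CPM in *Il1rl1*-/- pre-RPMs (mean ± SD, n = 4), with a log2 fold change of 0.54 (SE 0.381, adjusted p = 0.381 by edgeR). For *Ear2* (chromosome 14, from 44102654 to 44103534, plus strand) these values were 15.4 ± 6.7 and 22.8 ± 2.74 CPM, with a log2 fold change of 0.57 (SE 0.251, adjusted p = 0.146 by edgeR).

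The peroxidase gene *Epx* (chromosome 11, from 87864000 to 87875536, minus strand) had 0, 2, 1, and 1 counts in *Il1rl1*-/- monocytes and 1, 8, 1, and 0 in *Il1rl1*-/- pre-RPMs. *Prg3* (chromosome 2, from 84988215 to 84993886, plus strand), the second major basic protein, had 0, 3, 1, and 0 and then 3, 7, 0, and 1 counts. The high value of both genes in pre-RPMs came from mouse 2, the library in which *Ccr3* and *Alox15* were lowest.

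Of the 10 genes, 6 passed the filter on low counts in this comparison, and 2 were called higher, where 0.974% of the 11196 genes tested were called higher. The 109 genes behind this share became 33 without *Il1rl1*-/- monocyte mouse 2 and 259 without *Il1rl1*-/- monocyte mouse 3. The CPM was higher in every pre-RPM library than in every monocyte library for 5 of the 10 genes (*Ccr3*, *Siglecf*, *Il5ra*, *Ear6*, and *Alox15*), where 11.3% of all genes tested were. None was lower in every library. In bulk samples, a change in the share of cells that express a gene and a change in RNA per cell cannot be told apart.

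In the WT libraries, from which the set was chosen, the mean level of these 5 genes was also higher in pre-RPMs than in monocytes. From monocytes to pre-RPMs, the counts of *Ccr3* went from 24, 7, 21, and 47 to 226, 154, 80, and 137 in mice 1 to 4, and the log2 fold change was 3.06 (SE 0.383). Among called genes with groups apart and a mean log2 CPM of 1 or more, it led 33 rises, ahead of *Retnlg* (2.83, SE 0.443), a resistin-like gene of neutrophils, and *Mylk* (2.78, SE 0.497), a myosin kinase. *Alox15* went from 37, 20, 42, and 60 counts to 218, 176, 84, and 163, with a log2 fold change of 2.47 (SE 0.312). *Siglecf* went from 6, 1, 9, and 6 to 43, 27, 5, and 10, and its groups overlapped through mouse 3. For *Il5ra* the counts were 5, 2, 6, and 7 and then 33, 26, 4, and 22, and for *Ear6* they were 2, 0, 2, and 7 and then 21, 29, 9, and 13. The groups of *Il5ra* also overlapped through mouse 3.

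In WT, 0.316% of the 11091 genes tested were called higher in pre-RPMs, and 9.33% were higher in every pre-RPM library. The first share is unstable. Its 35 genes became 405 without WT monocyte mouse 3, 7 without WT pre-RPM mouse 1, and 150 with DESeq2. Of the 10 genes, 4 were higher in every WT pre-RPM library (*Ccr3*, *Epx*, *Ear6*, and *Alox15*), a count that the choice of the set used. Of these, *Epx* had 0 or 1 count in each monocyte library and 3, 1, 5, and 1 in pre-RPMs.

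WT pre-RPM mouse 3 stood apart from the other WT pre-RPM libraries. It held 1100 counts of *Hbb-bs*, a beta-globin gene, where the other 3 had 23, 14, and 216, and 96 counts of *Gata2*, where they had 40, 18, and 51. Its level was 19.6 CPM of *Ccr3*, 20.6 CPM of *Alox15*, 1.22 CPM of *Siglecf*, and 0.98 CPM of *Il5ra*. Without it, the mean of the remaining WT pre-RPMs was 41.9 ± 10.1, 45.2 ± 6.02, 6.49 ± 3.84, and 6.58 ± 1.24 CPM (SD, n = 3). With it, these means were 36.3, 39.1, 5.17, and 5.18 CPM. Mouse 3 was the highest of the 4 for 8 of 10 RPM genes (all but *Spic* and *Adgre1*), 11 of 13 neutrophil genes, 7 of 10 monocyte genes, and 7 of 10 basophil and mast cell genes, with 171 counts of *Vcam1* against 10, 8, and 38, 262 of *Hmox1* against 77, 53, and 111, and a sum of 337 CPM over 10 RPM genes against 156, 126, and 183 CPM. The neutrophil genes summed to 382 CPM in mouse 3 and to 394 CPM in mouse 1. The part of RNA from these cell types in the levels of the set was not tested.

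Between pre-RPMs and RPMs the genes parted. *Ccr3* rose further, and *Alox15* fell to the limit of detection. In *Il1rl1*-/- RPMs, *Ccr3* had 1440, 2089, 1368, and 1810 counts, or 337 ± 36.3 CPM (mean ± SD, n = 4), against 26.3 CPM in pre-RPMs. The log2 fold change was 3.63 (SE 0.247, adjusted p = 6.03e-09 by edgeR). *Alox15* had 1 count in each of the 4 RPM libraries. From pre-RPMs its summed count dropped from 504 to 4, a ratio of 133 relative to library size (95% interval from 51.4 to 488, exact binomial, counting error only), and it was called lower (adjusted p = 1.17e-08 by edgeR).

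*Siglecf* also fell at this step. Its counts in *Il1rl1*-/- RPMs were 4, 5, 4, and 2, and its log2 fold change from pre-RPMs was −2.41 (SE 0.448, adjusted p = 0.000305 by edgeR). *Alox15* and *Siglecf* passed the low-count filter through the pre-RPM libraries alone, so that their being tested at this step depended on that group being high. *Il5ra* had 0, 1, 0, and 1 counts in *Il1rl1*-/- RPMs and *Ear6* had 0, 2, 0, and 0, and neither passed the filter. The ratios of their summed counts, pre-RPMs over RPMs, were 37.9 (95% interval from 10.1 to 319) and 32.6 (from 8.65 to 275) by the same method, and rest on 2 counts each in RPMs. *Ear1* had no count in any *Il1rl1*-/- RPM library and was at least 1.95-fold higher in pre-RPMs, taking 3 counts per RPM library as the floor.

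*Prg2* and *Ear2* were not called at this step. *Prg2* had 6.59 ± 2.85 CPM in *Il1rl1*-/- RPMs (mean ± SD, n = 4), and its log2 fold change was −0.88 (SE 0.342, adjusted p = 0.0418 by edgeR). *Ear2* had 18.6 ± 0.692 CPM, a log2 fold change of −0.36 (SE 0.118, adjusted p = 0.0172 by edgeR). Neither reached the fold threshold, although every RPM library was below every pre-RPM library for *Ear2*. *Epx* had at most 3 counts in an *Il1rl1*-/- RPM library and so did *Prg3*.

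From *Il1rl1*-/- pre-RPMs to RPMs, 5 of the 10 genes passed the filter. Of these, 1 was called higher, where 14.5% of the 11437 genes tested were, and 2 were called lower, where 11.5% were. The 2 are *Siglecf* and *Alox15*, which passed the filter through the pre-RPM libraries alone, so that nothing is read from their count. The CPM was higher in every RPM library for 1 of the 10 genes, against 27.0% of all genes tested, and lower in every RPM library for 6 (*Siglecf*, *Il5ra*, *Ear1*, *Ear2*, *Ear6*, and *Alox15*), against 22.3%. This comparison shares its pre-RPM libraries with that from monocytes.

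The WT values of the second step are given as a description. *Ccr3* had 1479, 1317, 1468, and 1163 counts in RPMs of mice 1 to 4, with a log2 fold change from pre-RPMs of 3.05 (SE 0.246). *Alox15* had 6, 17, 0, and 2 counts, with a log2 fold change of −4.82 (SE 0.456). Mouse 2 held most of these counts, and without it the log2 fold change was −5.95. The same library had 5 counts of *Il5ra* and of *Ear6*, where the other WT RPM libraries had at most 1. In every WT RPM library, 4 of the 10 genes were lower than in every WT pre-RPM library (*Prg2*, *Ear1*, *Ear6*, and *Alox15*), where 20.9% of the 11239 genes tested were, while *Siglecf*, *Il5ra*, and *Ear2* overlapped. *Siglecf* averaged 5.17 CPM in WT pre-RPMs and 1.00 CPM in WT RPMs, and *Il5ra* 5.18 and 0.365 CPM. *Ear2* averaged 19.4 CPM in WT pre-RPMs and 22.4 CPM in WT RPMs (log2 fold change 0.15, SE 0.162), the other direction than in *Il1rl1*-/- libraries, and the difference between genotypes was not tested.

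**Figure D2:**
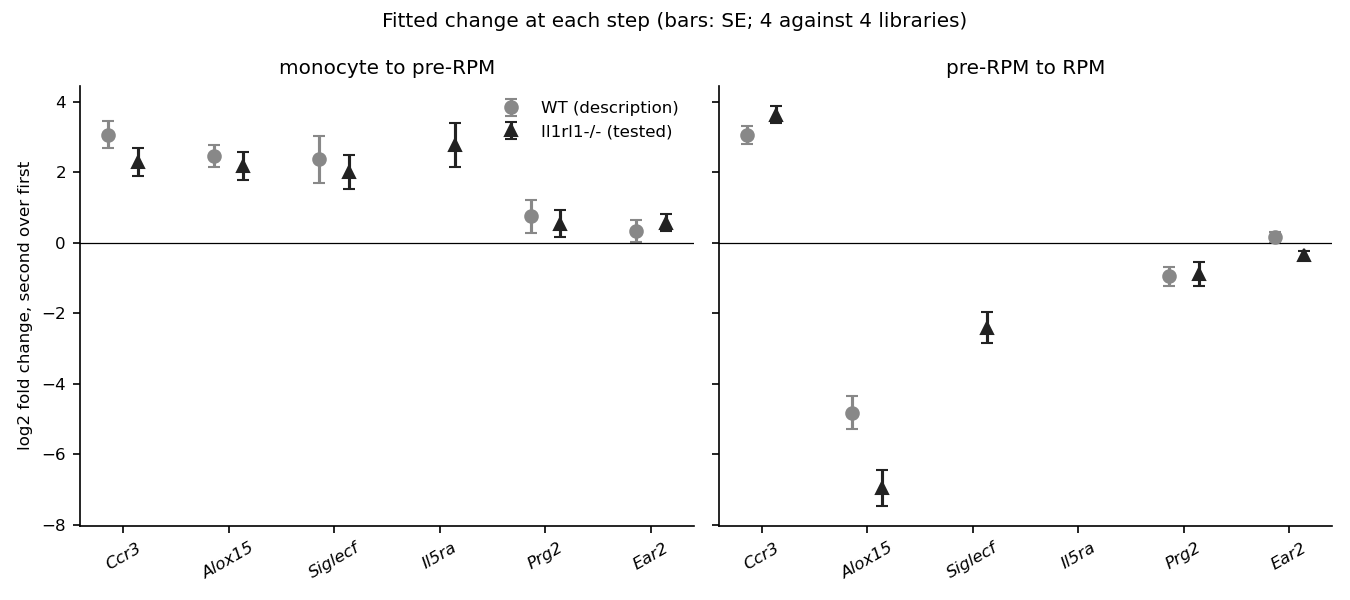
Fitted log2 fold change of 6 genes (vertical axis, second cell type over the first) at the step from monocytes to pre-RPMs and at the step from pre-RPMs to RPMs. Grey circles are WT, given as a description, black triangles are libraries labelled Il1rl1-/-, bars are the SE, and a gene without a point did not pass the filter. Ccr3 is above 0 at both steps, and Alox15 is above 0 at the first and below it at the second.

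The ratio of *Ccr3* to *Alox15* differed between RPMs and the other cell types. It was computed from the counts of each library after the levels had been seen. In pre-RPMs it stayed near 1, from 0.84 to 1.04 in WT and from 0.841 to 1.05 in *Il1rl1*-/- libraries. In monocytes it ranged from 0.35 to 0.783 in WT and from 0.679 to 1.33 in *Il1rl1*-/- libraries, where mouse 1 had only 8 and 6 counts. In the 2 WT RPM libraries with more than 3 counts of *Alox15* it was 77.5 and 246. Over all WT RPMs the ratio of the summed counts was 217 (95% interval from 147 to 336, exact binomial), and in *Il1rl1*-/- RPMs it was 1680 (from 655 to 6160). WT mouse 2 held 17 of the 25 counts of *Alox15* in WT RPMs, and without it the WT ratio was 514 (from 260.0 to 1190). The *Il1rl1*-/- ratio rests on 4 counts of *Alox15*.

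**Figure D3:**
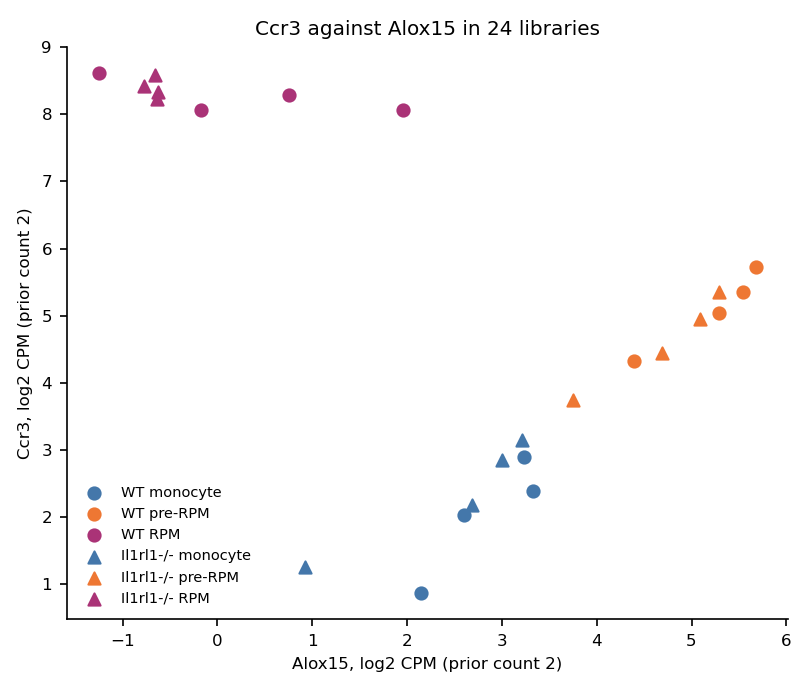
Ccr3 (vertical axis) against Alox15 (horizontal axis) in the 24 libraries, both as log2 CPM with a prior count of 2. Monocytes and pre-RPMs lie along a common rising line, whereas the 8 RPM libraries sit at the highest Ccr3 values, 7 of them below all other libraries in Alox15 and WT mouse 2 above Il1rl1-/- monocyte mouse 1.

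Genotype groups overlapped for all 10 genes in each of the 3 cell types. In RPMs, whose values the stated rule did not use, 3 of the 10 genes passed the filter and none was called, where 0.233% of the 11150 genes tested were called in either direction at an adjusted p under 0.05. At an unadjusted p under 0.05 none was called either, and no alternative, DESeq2 included, called one. The log2 fold change of *Il1rl1*-/- over WT RPMs was 0.11 for *Ccr3* (SE 0.136, adjusted p = 0.928 by edgeR), 0.19 for *Prg2* (SE 0.309, adjusted p = 0.956), and −0.27 for *Ear2* (SE 0.136, adjusted p = 0.725). In pre-RPMs, given as a description, it was −0.48 for *Ccr3* (SE 0.29), −0.52 for *Alox15* (SE 0.274), −0.38 for *Siglecf* (SE 0.493), −0.44 for *Il5ra* (SE 0.47), and −0.41 for *Ear6* (SE 0.408). All 5 were lower on average in the libraries labelled *Il1rl1*-/-, by less than the range of values within a group. Without WT pre-RPM mouse 1, the value of *Siglecf* was 0.17. *Ear2* (0.24, SE 0.139) and *Prg2* (0.12, SE 0.309) were higher on average in *Il1rl1*-/- pre-RPMs, and the value of *Prg2* was −0.34 without *Il1rl1*-/- pre-RPM mouse 2 and −0.04 without WT pre-RPM mouse 1 or mouse 4. In monocytes it was 0.32 for *Ccr3* (SE 0.492) and −0.23 for *Alox15* (SE 0.44).

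Levels were compared between genes per kilobase of exon. In *Il1rl1*-/- pre-RPMs, *Ear2* came first at 31.8 ± 3.82 CPM per kb (mean ± SD, n = 4), and its libraries did not overlap with those of any other gene of the set. *Prg2* (13.7 ± 6.98), *Alox15* (11.3 ± 4.55), and *Ccr3* (8.04 ± 3.63 CPM per kb) followed, each overlapping with its neighbour in that order. *Ear6* had 3.54 ± 1.67, *Ear1* 1.64 ± 1.29, *Siglecf* 1.45 ± 0.725, and *Il5ra* 1.07 ± 0.675 CPM per kb, and *Prg3* and *Epx* came last at 0.549 ± 0.565 and 0.173 ± 0.22 CPM per kb. Sequence shared with other genes limits this order, since 57.4% of *Ear1* and 41.5% of *Ear2* occurs in other genes. Levels per kb that is not shared were added after the levels had been seen. By this measure *Ear1* had 3.85 ± 3.04, *Ear6* 3.58 ± 1.69, and *Ear2* 54.3 ± 6.52 CPM, so that the order of *Ear1* and *Ear6* was not settled. Read pairs that reach into unshared sequence can still be counted, so that this measure can overstate the levels. In *Il1rl1*-/- RPMs, *Ccr3* came first at 103 ± 11.1 CPM per kb, apart from *Ear2* at 25.9 ± 0.962 and *Prg2* at 7.87 ± 3.4 CPM per kb, and the other 7 genes reached at most 0.517 CPM per kb in any library.

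*Ccr3*, *Alox15*, *Siglecf*, *Il5ra*, and *Ear6* also varied together from mouse to mouse within the pre-RPM gate. They are the 5 genes whose *Il1rl1*-/- pre-RPM libraries were all above the monocyte libraries, which leaves out *Prg2*, whose mean was also highest in pre-RPMs. Over the 8 pre-RPM libraries, each taken as its deviation from its genotype mean in log2 CPM, *Ccr3* correlated with *Alox15* at r = 0.98, *Il5ra* at r = 0.91, *Siglecf* at r = 0.90, and *Ear6* at r = 0.86. The median over all 12841 genes was r = −0.019. These values share libraries and depth and are given as a description, and the choice of the set used 4 of the 8 libraries. WT mouse 1 and *Il1rl1*-/- mouse 4 were above the genotype mean in all 5 genes, and WT mouse 3 and *Il1rl1*-/- mouse 2 were the lowest of their genotype in all 5. Without WT pre-RPM mouse 3 the correlations with *Ccr3* were 0.97, 0.93, 0.85, and 0.80 in the same order, and without both low libraries, those farthest from the median of *Ccr3*, they were 0.98, 0.94, 0.88, and 0.51.

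Of the granule genes with more counts, *Ear2* varied in part with the group and *Prg2* did not. *Prg2* correlated with *Ccr3* at r = −0.62 over the 8 pre-RPM libraries and at r = −0.03 without the same 2, and *Ear2* correlated at r = 0.64 and then 0.79. Without WT pre-RPM mouse 3 alone, *Prg2* had r = −0.59 and *Ear2* r = 0.49. *Prg2* was highest in *Il1rl1*-/- mouse 2, with 20.2 CPM against 7.44 to 9.22 CPM in the other 3.

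**Figure D4:**
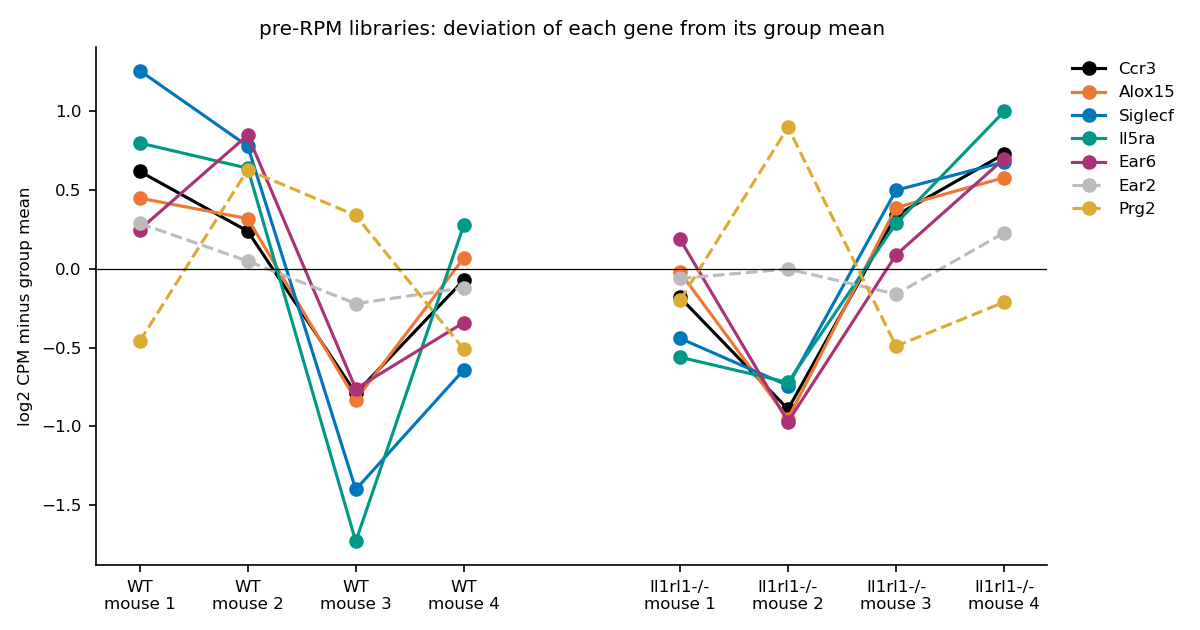
Deviation of 7 genes from their genotype mean (vertical axis, log2 CPM) in each of the 8 pre-RPM libraries (horizontal axis). Solid lines join Ccr3, Alox15, Siglecf, Il5ra, and Ear6, which fall together in WT mouse 3 and Il1rl1-/- mouse 2, and dashed lines join Ear2, which moves over a smaller range, and Prg2, which is highest in Il1rl1-/- mouse 2.

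Genes outside the set moved with its pre-RPM group. Of 12841 genes, *Cebpe*, which encodes a factor of granulocyte maturation, correlated with *Ccr3* over the pre-RPM deviations at r = 0.95 (rank 14), *Retnlg* at r = 0.95 (rank 16), and *Mmp9*, a gelatinase of granulocytes, at r = 0.94 (rank 23). *Gata1*, which encodes a factor needed for the eosinophil lineage, had r = 0.78 (rank 230). *Adgre1*, listed with the RPM genes, encodes the sort marker F4/80 and had r = 0.80 (rank 195). *Adgre4*, listed with the other receptors known from eosinophils, had r = 0.76 (rank 255). The B cell genes *Pax5* and *Cd79a* had r = −0.89 and −0.86. These genes were picked from the marker lists for their r. Most neutrophil genes and eosinophil transcription factors did not share it. Of 13 neutrophil genes, 2 had r of at least 0.5 and 2 of −0.5 or lower, with a median of 0.03, and *S100a8* had r = 0.04 and *Csf3r* r = −0.50. Of 10 RPM genes, *Adgre1* alone had r above 0 and 4 had r of −0.5 or lower, with a median of −0.455. Of 7 eosinophil transcription factors, 2 had r of at least 0.5 (*Cebpe* and *Gata1*) and *Xbp1* had r = −0.67, with a median of −0.17. All 6 B cell genes had r of −0.5 or lower.

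In monocytes, at lower counts, *Ccr3* correlated with *Ear6* at r = 0.97, with *Alox15* at r = 0.90, with *Il5ra* at r = 0.73, with *Siglecf* at r = 0.56, and with *Retnlg* at r = 0.81 over the 8 libraries. *Ear6* had at most 7 counts there. Spearman's rho was only 0.43 for *Il5ra* and 0.38 for *Siglecf*. In the same libraries *Ear2* had r = 0.66 and *Prg2* r = 0.11. Monocyte genes other than *Cd14* (r = −0.30) had r from 0.57 to 0.75 with *Ccr3*, and NK cell genes from −0.52 to −0.44. The part of the mix of cells in these values was not tested. In RPMs, *Ccr3* correlated with *Alox15* at r = −0.63 and with *Siglecf* at r = −0.61, where both were at few counts. *Il5ra* had r = −0.44 and *Ear6* r = −0.37, also at few counts. Of the genes with more counts, *Prg2* had r = −0.29 and *Ear2* r = 0.81.

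The 250 bases before the RefSeq start of a gene are shown for the 4 genes of this group whose promoter was at hand and for *Ear2*, whose promoter resembles that of *Ear6* but whose level did not follow it across the cell types. Sequences are from RefSeq on GRCm38.p6, written 5′ to 3′ in the direction of the gene, and capitals mark the letters GATA or, on the other strand, TATC, the core that GATA factors bind. They lie at chr9:124021721-124021970 (plus strand) for *Ccr3*, chr7:43351091-43351340 (plus) for *Siglecf*, chr6:106749038-106749287 (minus) for *Il5ra*, chr14:51853518-51853767 (plus) for *Ear6*, and chr14:44102404-44102653 (plus) for *Ear2*. The RefSeq start of *Ear6* lies inside the gene as counted, so that the last 69 bases of its window, with the marked letters, belong to the counted gene. The window searched for *Ear1*, which is not shown, lies inside the counted gene with all of its 250 bases.
Ccr3: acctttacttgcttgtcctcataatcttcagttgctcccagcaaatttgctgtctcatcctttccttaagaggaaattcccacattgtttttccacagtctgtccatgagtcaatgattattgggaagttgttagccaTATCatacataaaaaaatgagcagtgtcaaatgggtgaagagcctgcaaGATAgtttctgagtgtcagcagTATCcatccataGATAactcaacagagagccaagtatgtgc
Il5ra: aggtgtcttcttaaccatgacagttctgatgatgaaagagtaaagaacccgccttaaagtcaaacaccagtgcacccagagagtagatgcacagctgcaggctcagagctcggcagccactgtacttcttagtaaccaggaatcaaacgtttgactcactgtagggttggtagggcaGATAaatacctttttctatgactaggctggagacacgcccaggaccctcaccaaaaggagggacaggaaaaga
Siglecf: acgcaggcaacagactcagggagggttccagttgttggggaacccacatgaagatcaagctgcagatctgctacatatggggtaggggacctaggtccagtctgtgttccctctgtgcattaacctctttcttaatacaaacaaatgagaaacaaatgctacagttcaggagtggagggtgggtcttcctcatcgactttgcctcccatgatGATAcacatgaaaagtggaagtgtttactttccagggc
Ear6: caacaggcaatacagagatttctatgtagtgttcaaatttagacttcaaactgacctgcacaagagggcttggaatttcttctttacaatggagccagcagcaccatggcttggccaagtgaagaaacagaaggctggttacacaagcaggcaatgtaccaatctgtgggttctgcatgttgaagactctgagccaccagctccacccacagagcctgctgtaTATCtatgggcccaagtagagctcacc
Ear2: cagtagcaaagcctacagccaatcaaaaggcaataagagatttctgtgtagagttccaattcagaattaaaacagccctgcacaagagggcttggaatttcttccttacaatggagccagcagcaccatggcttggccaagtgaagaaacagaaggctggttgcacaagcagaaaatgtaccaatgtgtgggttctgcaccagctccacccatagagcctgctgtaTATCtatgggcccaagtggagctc
*Ccr3* held 4 such matches and each of the other 4 genes held 1, as did *Epx* and *Ear1*, and *Prg3* held 2. GATA or TATC occurs in 53.6% of the 32851 promoter windows of this length, so that a match sets no gene apart. The longer AGATAA, which contains GATA, or its reverse complement TTATCT, searched after the sequences had been seen, occurred in *Ccr3* and *Il5ra* and in 9.99% of all windows. CCAAT or ATTGG occurred once in *Ccr3* and *Ear6* and 3 times in *Ear1* and *Ear2*, and in 33.8% of all windows. The windows of *Ear1* and *Ear2* were identical at 246 of 248 aligned bases (99.2%), and those of *Ear2* and *Ear6* at 166 of 228 (72.8%), aligned without gaps. *Prg2* and *Alox15* were not searched.

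Near-identical copies limit the counts of the EAR genes. Of the 50-base windows of the transcripts of *Ear1*, 57.4% also occurred in transcripts of other genes (*Ear2*, *Ear6*, *Ear10*, and 2 pseudogenes), and of those of *Ear2*, 41.5% did. For *Ear6* the share was 0.954%, and it was under 1% for the other 7 genes of the set. Read pairs that map to several places were not counted. A pair that reaches from a shared into an unshared window can still map to a single place, so that the share of pairs left out was not measured.

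Among the 10 genes whose level over the 24 libraries was most like that of *Ccr3* were *Stard5*, *Gcnt1*, *Gm15922*, *Tbxas1*, *Neu1*, *Spic*, *Ccl24*, *Pikfyve*, and *P2rx4*, with Pearson r from 0.967 to 0.979 in log2 CPM. These values mostly hold the difference between the cell types. *Spic*, which encodes the transcription factor that RPMs depend on, had 2.54 CPM in *Il1rl1*-/- monocytes, 10.9 CPM in pre-RPMs, and 378 CPM in RPMs on average. Ranked by Spearman's rho, 1 of the 10 stayed among the first 10, and in the 12 *Il1rl1*-/- libraries alone, 4 did. The correlation of *Ccr3* over the 24 libraries was −0.52 with *Alox15*, −0.04 with *Siglecf*, −0.23 with *Il5ra*, and −0.18 with *Ear6*.

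*Alox15* had other neighbours. With it in place of *Ccr3*, the first 4 were *Retnlg* (r = 0.984), *F5* (r = 0.965), *Tbc1d8* (r = 0.96), and *Ccl6* (r = 0.958), which were highest in pre-RPMs in both genotypes. *Retnlg* averaged 12.9 CPM in *Il1rl1*-/- monocytes, 67.6 CPM in pre-RPMs, and 0.254 CPM in RPMs, and *F5*, coagulation factor V, averaged 24.5, 65.2, and 0.503 CPM.

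Among ligands of the receptors in the set, *Ccl24*, the eotaxin that binds CCR3, rose with its receptor. Its counts in *Il1rl1*-/- mice 1 to 4 were 1, 4, 6, and 8 in monocytes, 17, 31, 11, and 26 in pre-RPMs, and 248, 359, 285, and 260 in RPMs. It was called higher at both steps, with log2 fold changes of 2.08 (SE 0.381, adjusted p = 0.00366 by edgeR) and 3.63 (SE 0.133, adjusted p = 4.5e-12). At the first step it too was tested only through the pre-RPM libraries, its monocyte libraries being under the level that the filter asks for. *Ccl5*, which CCR3 also binds, was called lower from monocytes to pre-RPMs, with a log2 fold change of −4.58 (SE 0.357, adjusted p = 4.31e-05 by edgeR). *Ccl7*, *Ccl11*, *Il5*, *Il3*, and *Csf2* had at most 3 counts in every library, so that *Il5ra* was counted where its ligand was not detectable at this depth.

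Of 10 other receptors known from eosinophils, 8 passed the filter in each *Il1rl1*-/- comparison. None was called from monocytes to pre-RPMs, and from pre-RPMs to RPMs 1 was called higher and 6 lower, where 14.5% and 11.5% of all genes tested were. *Csf2rb*, which encodes the beta chain that pairs with the IL-5 receptor, had a log2 fold change of 0.82 (SE 0.141, adjusted p = 0.00256 by edgeR) at the first step, under the fold threshold, and of −1.55 (SE 0.0956, adjusted p = 1.96e-09) at the second. *Il1rl1* (−3.87), *C3ar1* (−3.04), and *Itga4* (−2.62) had the largest falls in log2 fold change, and *Il3ra* was the gene called higher (1.43, SE 0.231). *Il1rl1* and *C3ar1* were under the level that the filter asks for in every *Il1rl1*-/- RPM library. They were tested only through the pre-RPM libraries, so that nothing is read from their calls. The median log2 fold change of the 8 genes at the second step was −1.51, and that of all genes tested was −0.00176.

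Of 7 transcription factors of the eosinophil lineage, 6 passed the filter from *Il1rl1*-/- monocytes to pre-RPMs and 2 were called, both lower, where 3.88% of the 11196 genes tested were called lower. *Gata2*, which also marks basophils and mast cells, had a log2 fold change of −2.20 (SE 0.445, adjusted p = 0.00636 by edgeR) and *Id2* of −1.08 (SE 0.183, adjusted p = 0.00228). *Gata2* passed the filter through the monocyte libraries, with 4, 9, 3, and 13 counts in pre-RPMs, so that nothing is read from its call. *Gata1* was not tested, with 0, 2, 2, and 1 counts in monocytes and 4, 4, 9, and 7 in pre-RPMs. From pre-RPMs to RPMs, *Id2* was called higher (2.13, SE 0.0902) and *Cebpa* lower (−1.35, SE 0.155), of 4 that passed.

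At the first step *Alox15* was called and the leukotriene genes were not, and the difference between them was not tested. *Alox5* and *Alox5ap*, which make leukotriene A4, had log2 fold changes of −0.01 (SE 0.246) and 0.49 (SE 0.166) from *Il1rl1*-/- monocytes to pre-RPMs and were not called. Both were called lower from pre-RPMs to RPMs, with −5.30 (SE 0.365) and −4.62 (SE 0.133). *Alox5* was under the level that the filter asks for in every *Il1rl1*-/- RPM library. It was tested only through the pre-RPM libraries, so that nothing is read from its call. *Ltc4s* and *Alox12* were near the limit of detection. The remaining genes of the EAR and RNase 2 cluster (*Ear10*, *Ear14*, *Rnase2a*, and *Rnase2b*) had at most 3 counts in every library.

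Markers of other cell types were followed beside the set. The sort was on Ly6G lo cells, a gate that leaves out most neutrophils. The study's flow cytometry also counted within CD11c low and NK1.1 low cells, gates that leave out most dendritic and NK cells. Whether the sort used these 2 gates was not given in the sources used here. Neutrophil genes mostly fell where *Ccr3* and *Alox15* rose. From *Il1rl1*-/- monocytes to pre-RPMs, 7 of 13 were called lower, against the same 3.88% of all genes tested, and 1, *Retnlg*, was called higher (2.37, SE 0.474, adjusted p = 0.00599 by edgeR). The largest falls were those of *Cxcr2* (−4.13), *Ly6g* (−3.62), *S100a8* (−3.26), and *S100a9* (−3.23). *Cxcr2* had at most 3 counts and *Ly6g* at most 7 in any *Il1rl1*-/- pre-RPM library. These 2 genes were tested only through the monocyte libraries, so that nothing is read from their calls. The median log2 fold change of the 12 that passed was −2.99. Their summed level was 1070, 2150, 1910, and 2100 CPM in *Il1rl1*-/- monocytes of mice 1 to 4 and 317, 340, 577, and 443 CPM in pre-RPMs, where *Csf3r* was the most abundant at 122 CPM.

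Of 10 basophil and mast cell genes, 2 passed the filter and *Hdc* was called lower (−2.28, SE 0.339, adjusted p = 0.000967 by edgeR), where 3.88% of all genes tested were. *Hdc* passed through the monocyte libraries, with 5, 8, 10, and 11 counts in pre-RPMs, so that nothing is read from its call. In *Il1rl1*-/- pre-RPMs the 10 summed to 4.96, 7.12, 6.25, and 5.4 CPM, the most abundant was *Kit* at 2.94 CPM, and 6 of them (*Cpa3*, *Fcer1a*, *Prss34*, *Cd200r3*, *Tpsb2*, and *Tpsab1*) had at most 3 counts in each of these libraries. The other 4 reached 5 counts (*Mcpt8* and *Ms4a2*), 11 (*Hdc*), and 21 (*Kit*). In WT pre-RPMs they summed to 13.7, 11.5, 42.9, and 22.8 CPM, with the highest value in mouse 3, where *Ccr3* was lowest. Their part in the levels of *Gata2* was not tested.

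Of 8 NK cell genes, 7 were called lower from *Il1rl1*-/- monocytes to pre-RPMs and none higher. Of all genes tested, 3.88% were called lower. *Klrb1c*, *Klre1*, *Nkg7*, and *Prf1* passed the filter through the monocyte libraries, so that nothing is read from their calls. The NK cell genes summed to 1570, 1180, and 808 CPM in *Il1rl1*-/- monocytes of mice 1, 2, and 4, less in mouse 3. In pre-RPMs they summed to 18.7, 52.2, 29.1, and 14.5 CPM. Of 8 T cell genes, 5 passed the filter and 1 was called lower (*Lck*, −3.93). All 10 monocyte genes and 6 B cell genes passed, and none was called. Of 7 dendritic cell genes 4 passed and of 7 erythroid genes 1 did, and none was called. Monocyte genes summed to 2140, 2140, 2370, and 2170 CPM in *Il1rl1*-/- pre-RPMs, with *Ccr2* the most abundant at 596 CPM, so that the labelled monocyte lineage was present by its markers.

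Of 10 RPM genes, 3 were called higher from *Il1rl1*-/- monocytes to pre-RPMs (*Spic*, 2.09, *Axl*, 2.09, and *Hmox1*, 1.12) and all 10 from pre-RPMs to RPMs, with a median log2 fold change of 6.6. At the first step 0.974% of all genes tested were called higher. With a library left out, 2 to 9 of all listed genes outside the set were called higher at that step. At the second step 9 of the 13 neutrophil genes, 6 of the 10 monocyte genes, 2 dendritic cell genes, and 1 NK cell gene were called lower. Called higher were 3 monocyte genes, 6 erythroid genes, and 1 T cell gene. No B cell, basophil, or mast cell gene was called, and of the 10 basophil and mast cell genes 1 passed the filter. Of all genes tested, 11.5% were called lower and 14.5% higher. Many of the called genes reached the level that the filter asks for through a single cell type, so that nothing is read from these counts. Erythroid genes, led by *Hbb-bs*, summed to 2420, 748, 10000, and 13800 CPM in *Il1rl1*-/- RPMs, against 7.09, 7.97, 19.0, and 29.6 CPM in pre-RPMs, and *Ccr3* was 323, 341, 300, and 386 CPM in the same 4 RPM libraries. Without *Ccr3*, the other 9 genes of the set summed to 32.1 ± 11.9 CPM in *Il1rl1*-/- monocytes, 75.3 ± 13.9 CPM in pre-RPMs, and 26.9 ± 3.09 CPM in RPMs (mean ± SD, n = 4). The part of any of these cell types in the levels of the set was not tested.

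**Figure D5:**
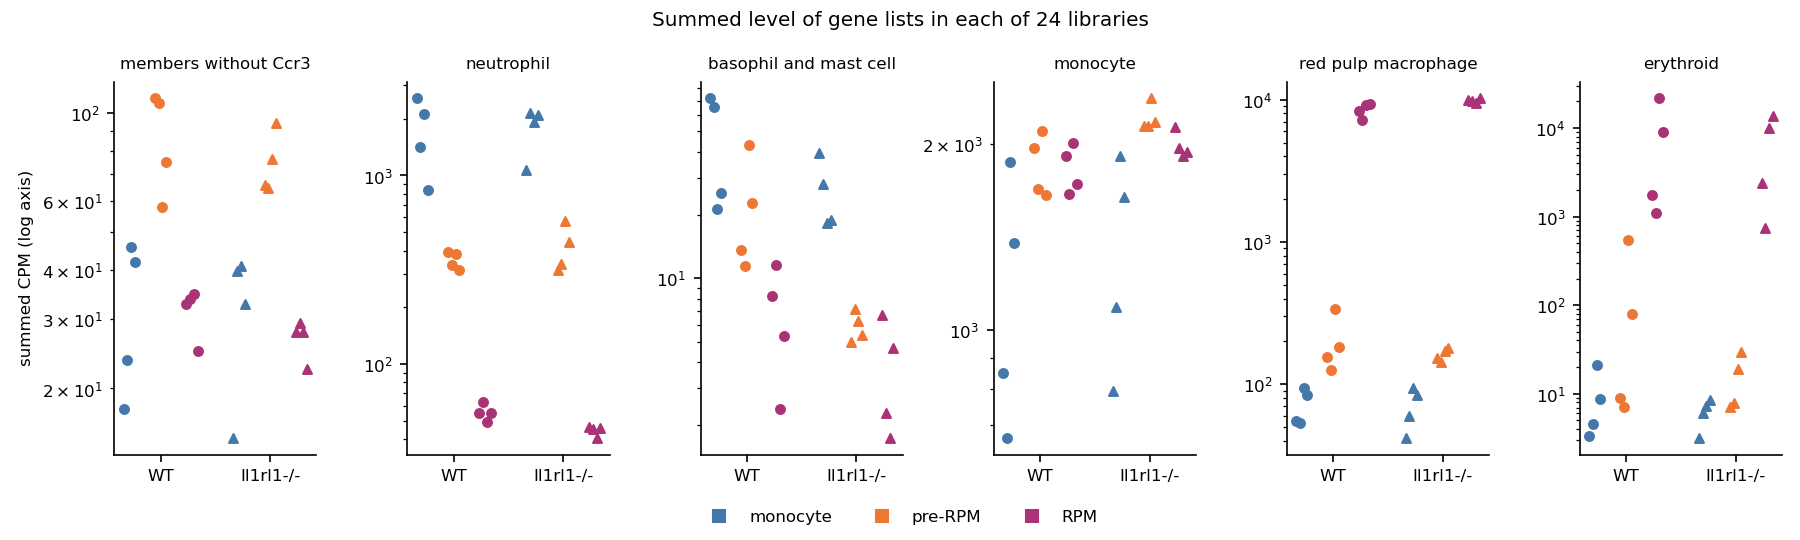
Summed CPM (vertical axes, log scale) of the 9 genes of the set other than Ccr3 and of 5 marker lists in each of the 24 libraries, with circles for WT, triangles for Il1rl1-/-, and colours for the cell type. The set without Ccr3 is highest in pre-RPMs, whereas neutrophil genes fall at each step and RPM and erythroid genes are highest in RPMs.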

How the data were processed

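RNA-seq libraries of monocytes, pre-RPMs, and RPMs were analysed (4 mice per genotype, 24 libraries). Reads were trimmed (cutadapt), aligned (STAR), and counted as pairs by the authors with featureCounts (version 1.6.2 in the file headers), by strand, over exons joined by gene name, on the GRCm38 annotation of Ensembl release 95, leaving out pairs that map to several places. The deposited values are raw counts per gene, which the authors had neither normalized nor filtered. The build given in the submitters' processing notes differs from that in the headers, and the headers were followed.

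Groups follow the labels. Each comparison was fitted on its own 8 libraries with edgeR 4.0.16 under R 4.3.3 (quasi-likelihood F test, filterByExpr, TMM, Benjamini-Hochberg adjustment over all genes tested), where the authors had used DESeq2. The SE was derived from the F statistic. CPM was scaled with TMM factors (0.798 to 1.38), with a prior count of 2 on the log2 scale. Intervals on summed counts are exact binomial (Clopper-Pearson) and cover counting error only. On simulated counts for *Il1rl1*-/- monocytes and pre-RPMs, 128 of 200 genes changed 2-fold and 198 of 200 changed 4-fold were recovered among 11196 genes. False calls were 4.48% and 3.41%. The median estimated log2 fold change of the 2-fold genes was 0.994. A gene counted as recovered at an adjusted p under 0.05 by edgeR in the right direction, without a fold threshold. This rule is looser than that of the calls between cell types, so that these rates do not hold for those calls. No pair of replicates was identical.

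The members and all gene lists were chosen with earlier results of these data known. The text was to name the 10 genes of the set, the 10 most like *Ccr3* by Pearson r (1 of which is not reported here), the 2 next to it among WT rises, and from each list up to 4 of the largest called changes and the 2 most abundant genes. Other genes in the text were picked with their values in view. Within a genotype, the labels give the libraries of an animal the same mouse number, and their deviations from the mean of the group had a correlation over genes of r = 0.144 to 0.365 between *Il1rl1*-/- monocytes and pre-RPMs and of r = 0.103 to 0.152 between *Il1rl1*-/- pre-RPMs and RPMs. Between the genotypes, same-numbered RPM libraries come from different animals and correlated at r = 0.182 to 0.222. The alternatives were RLE factors, DESeq2 1.42.0, other filters, all libraries in a joint fit, the mouse as a block, and each library left out in turn. Protein sequences were not used here.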

Additional observations from a re-analysis of the deposited data

Results flagged for a closer look

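Of 59 groups of 4 libraries, each a gene of the set in a cell type and genotype, 6 held a library far from the other 3 in CPM, where chance flags about 1 in 20. That rate is for continuous values and does not hold for the 3 groups in which the other 3 libraries had no count. *Prg2* was at 20.2 CPM (119 counts) in *Il1rl1*-/- pre-RPM mouse 2, against at most 9.22 CPM in the other 3. The remaining 5 rest on 5 counts or fewer. WT RPM mouse 2 held 1.02 CPM of *Ear6* (5 counts) and 0.407 CPM of *Ear1* (2 counts), and *Il1rl1*-/- RPM mouse 2 held 0.327 CPM of *Ear6* (2 counts), where the other 3 libraries of the group had none. *Ear1* was at 0.917 CPM (4 counts) in WT monocyte mouse 3, and *Siglecf* was at 0.426 CPM (2 counts) in *Il1rl1*-/- RPM mouse 4, below the next library at 0.817 CPM.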

How the results depend on the processing

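From *Il1rl1*-/- monocytes to pre-RPMs, 2 genes of the set were called higher. DESeq2 called 4, no filter 6 (of all 10), a filter of 10 counts in every library 0 (of 2 tested), and an adjusted p under 0.05, a choice made after seeing the data, 4. The mouse number as a replicate block called 4, with *Siglecf* and *Il5ra* added, which passed the filter through the pre-RPM libraries alone. Leaving out a library gave 0 to 3, and 0 without pre-RPM mouse 3 or 4. From *Il1rl1*-/- pre-RPMs to RPMs, 2 were called lower, against 5 with no filter, 0 with at least 10 counts in every library, 4 with all 24 libraries in a joint fit, and 2 to 4 with a library left out. *Ccr3* was called higher at that step under every alternative that tested it, and the block changed no other call of the set. Between genotypes in RPMs no alternative called a gene of the set. Over all genes, 543 calls from *Il1rl1*-/- monocytes to pre-RPMs became 1060 with no filter, 264 with at least 10 counts, and 336 to 813 with a library left out (336 without monocyte mouse 2, 342 without pre-RPM mouse 4, and 358 without pre-RPM mouse 1), 2973 calls at the second step became 1542 with at least 10 counts, and 26 calls between genotypes in RPMs became 48 with DESeq2, 272 with no filter, and 81 with the block. Of the 10 genes most like *Ccr3*, 1 stayed by Spearman's rho and 4 in the *Il1rl1*-/- libraries alone. Scaling to totals without *Gm42418* and without TMM factors moved 18 of 60 mean levels of the set by more than 1 SD. A smaller total raises CPM by arithmetic, so that this shift is no change in counts. The cause of the other changes was not tested. Depth limits *Epx*, *Prg3*, and *Ear1*, which had at most 9 counts in any library, and, in *Il1rl1*-/- RPMs, *Il5ra*, *Ear6*, and *Alox15*, which had at most 2.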
